A study of Mus musculus with 16 samples.

Results

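The genes described here are 8 genes whose transcripts are carried by blood platelets and by megakaryocytes, the large marrow and lung cells that shed them: Ppbp, Pf4, Clec1b, Tubb1, Itga2b, Gp9, Treml1 and Gp5. They were chosen from earlier results of the same arrays, in which platelet genes stood higher in pregnant than in non-pregnant lungs after saline, so that difference is given below as a description and not as a test. Each gene was represented by the probe set that carries its symbol alone and has the highest mean over all arrays; each of the 8 had 1 such probe set, and all 8 were among the 12369 genes kept by the filter on weak signals. Gp9 passed that filter only through the pregnant groups: it was above its array's median signal on 4 of 4 arrays of each pregnant group and on 0 of 4 of each non-pregnant group.

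RNA of whole lungs from female BALB/c mice, an inbred laboratory strain, was hybridized to 16 single-colour Affymetrix mouse arrays in 4 groups of 4. The groups were pregnant mice given a titanium dioxide (TiO2) particle suspension, pregnant mice given phosphate-buffered saline (PBS), non-pregnant mice given TiO2 and non-pregnant mice given PBS. The TiO2 dose was 50 ug per mouse, all mice were treated once by droplets into the nose under light anaesthesia, RNA was taken 19 hours later, and the pregnant mice were at gestation day 14. The study asked whether pregnancy alters the lung's response to particles regarded as inert. Non-pregnant PBS replicate 2 carries conflicting labels, 1 calling the mouse pregnant and 1 non-pregnant; it was kept in the non-pregnant group, and results that move with its placement are given. The labels do not say whether each sample is 1 mouse, so the spread between samples may be partly technical.

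Platelets are anucleate cell fragments that plug damaged vessels and secrete the chemokines and growth factors stored in their granules. They adhere through membrane glycoproteins, are activated through receptors for collagen, thrombin, adenosine diphosphate, thromboxane and podoplanin, and aggregate when an integrin binds fibrinogen. They inherit their messenger RNA from megakaryocytes, which in mice reside in bone marrow, spleen and the lung circulation. In whole-lung RNA, fewer cells of a type and less RNA per cell cannot be told apart.

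All 16 arrays carried lung transcripts: surfactant protein C (Sftpc) was between 13.15 and 13.49 and the club cell secretoglobin Scgb1a1 between 13.44 and 13.55 on the scale used throughout, log2 of the quantile-normalized intensity plus 16. Arrays of 1 group correlated with r between 0.939 and 0.991 and arrays of different groups between 0.936 and 0.988. Several arrays stood apart in tissue content: non-pregnant PBS replicates 3 and 4 held the thymic protease Prss16 at 8.98 and 9.72, and pregnant TiO2 replicate 2 had the squamous keratin Krt13 at 5.21, against a lowest value of 10.71 on the other arrays. The lymph node venule marker Glycam1 was at 4.15 on pregnant TiO2 replicate 2 and at 4.14 and 4.60 on non-pregnant TiO2 replicates 1 and 4, against 8.06 to 10.76 on the other 13 arrays. The number of arrays limits the precision of every value.

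All 8 genes were higher on average in pregnant than in non-pregnant lungs after either exposure, by 1.29 to 2.70 times after PBS and by 1.35 to 2.13 times after TiO2, and none differed detectably between TiO2 and PBS. For Ppbp, Clec1b, Tubb1 and Gp5, every one of the 8 pregnant arrays was above every one of the 8 non-pregnant arrays, a separation that 0.542% of all genes showed in that direction. Gp9 was separated too, but is left out of that count of 4 in 7 because it passed the filter only where it was high. The PBS arrays, on which the genes had been chosen, are among those compared, so the separation is a description and not a test. Pf4, Itga2b and Treml1 overlapped between pregnant and non-pregnant arrays when both exposures were pooled.

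Among the granule genes, Ppbp encodes platelet basic protein, the precursor of a neutrophil-attracting chemokine stored in alpha granules. Its values were 8.04, 8.56, 9.13 and 9.17 in pregnant TiO2 lungs and 8.86, 9.03, 9.13 and 8.50 in pregnant PBS lungs, against 7.69, 7.90, 7.85 and 7.28 in non-pregnant TiO2 lungs and 7.31, 7.21, 7.55 and 7.73 in non-pregnant PBS lungs. The pregnant and non-pregnant arrays did not overlap, although the lowest pregnant array, TiO2 replicate 1, was only just above the highest non-pregnant one. Pf4 encodes platelet factor 4, a heparin-binding chemokine of the same granules. It stood at 9.78, 9.75, 9.81 and 9.93 in pregnant TiO2 lungs and at 9.78, 9.57, 9.82 and 9.84 in pregnant PBS lungs, against 9.26, 9.67, 9.52 and 9.08 in non-pregnant TiO2 lungs and 9.60, 9.51, 9.08 and 9.34 in non-pregnant PBS lungs. Its pregnant groups were the tighter ones, with SDs of 0.08 and 0.12 against 0.26 and 0.23, and after PBS the lowest pregnant array lay below the highest non-pregnant array.

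Clec1b encodes the C-type lectin-like receptor through which platelets are activated by podoplanin. It was at 8.08, 8.17, 8.40 and 8.37 in pregnant TiO2 lungs and at 8.09, 8.09, 8.39 and 8.35 in pregnant PBS lungs, against 6.98, 7.13, 7.58 and 6.97 in non-pregnant TiO2 lungs and 7.47, 7.48, 7.32 and 7.32 in non-pregnant PBS lungs. Its gap between the lowest pregnant array (8.08) and the highest non-pregnant array (7.58) was wide beside the SDs within groups, which ran from 0.09 to 0.28. Treml1 encodes a receptor of the alpha-granule membrane that reaches the surface on activation. It was at 6.70, 7.16, 6.63 and 6.67 in pregnant TiO2 lungs and at 6.70, 6.81, 6.99 and 6.98 in pregnant PBS lungs, against 6.35, 6.77, 6.50 and 5.44 in non-pregnant TiO2 lungs and 6.77, 6.15, 6.42 and 6.33 in non-pregnant PBS lungs. Its groups overlapped after both exposures, and it had the widest range of the 8 genes after Gp9 within the non-pregnant TiO2 group.

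Itga2b encodes integrin alpha IIb, a subunit of the fibrinogen receptor. It was at 7.46, 7.76, 8.16 and 8.25 in pregnant TiO2 lungs and at 8.22, 8.25, 7.95 and 8.01 in pregnant PBS lungs, against 7.40, 7.44, 7.41 and 7.14 in non-pregnant TiO2 lungs and 7.35, 7.38, 7.50 and 7.46 in non-pregnant PBS lungs. Pregnant TiO2 replicate 1 alone (7.46) lay within the range of the non-pregnant PBS arrays. Gp9 and Gp5 encode glycoproteins IX and V, subunits of the receptor for von Willebrand factor. Gp9 was at 6.09, 6.49, 6.40 and 6.44 in pregnant TiO2 lungs and at 6.46, 6.44, 6.97 and 6.40 in pregnant PBS lungs, against 5.79, 5.67, 5.67 and 4.27 in non-pregnant TiO2 lungs and 5.84, 5.39, 5.54 and 5.09 in non-pregnant PBS lungs, where it was below the array medians. Gp5 was at 6.71, 6.88, 7.21 and 6.99 in pregnant TiO2 lungs and at 6.96, 6.94, 7.35 and 6.95 in pregnant PBS lungs, against 6.39, 6.41, 6.42 and 6.07 in non-pregnant TiO2 lungs and 6.33, 5.90, 6.40 and 6.39 in non-pregnant PBS lungs. Gp5 did not overlap between pregnant and non-pregnant arrays, and neither did Gp9, which passed the filter only through the pregnant groups.

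Tubb1 encodes the beta-tubulin of the marginal microtubule band that gives platelets their disc shape. It was at 7.37, 7.49, 7.88 and 8.08 in pregnant TiO2 lungs and at 7.82, 7.72, 7.98 and 7.82 in pregnant PBS lungs, against 7.14, 7.03, 7.15 and 6.91 in non-pregnant TiO2 lungs and 6.94, 6.67, 6.89 and 6.92 in non-pregnant PBS lungs. Its SD was 0.33 in the pregnant TiO2 group and between 0.11 and 0.12 in the other groups. Replicates 1 and 2 were the low arrays of the pregnant TiO2 group.

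**Figure D1:**
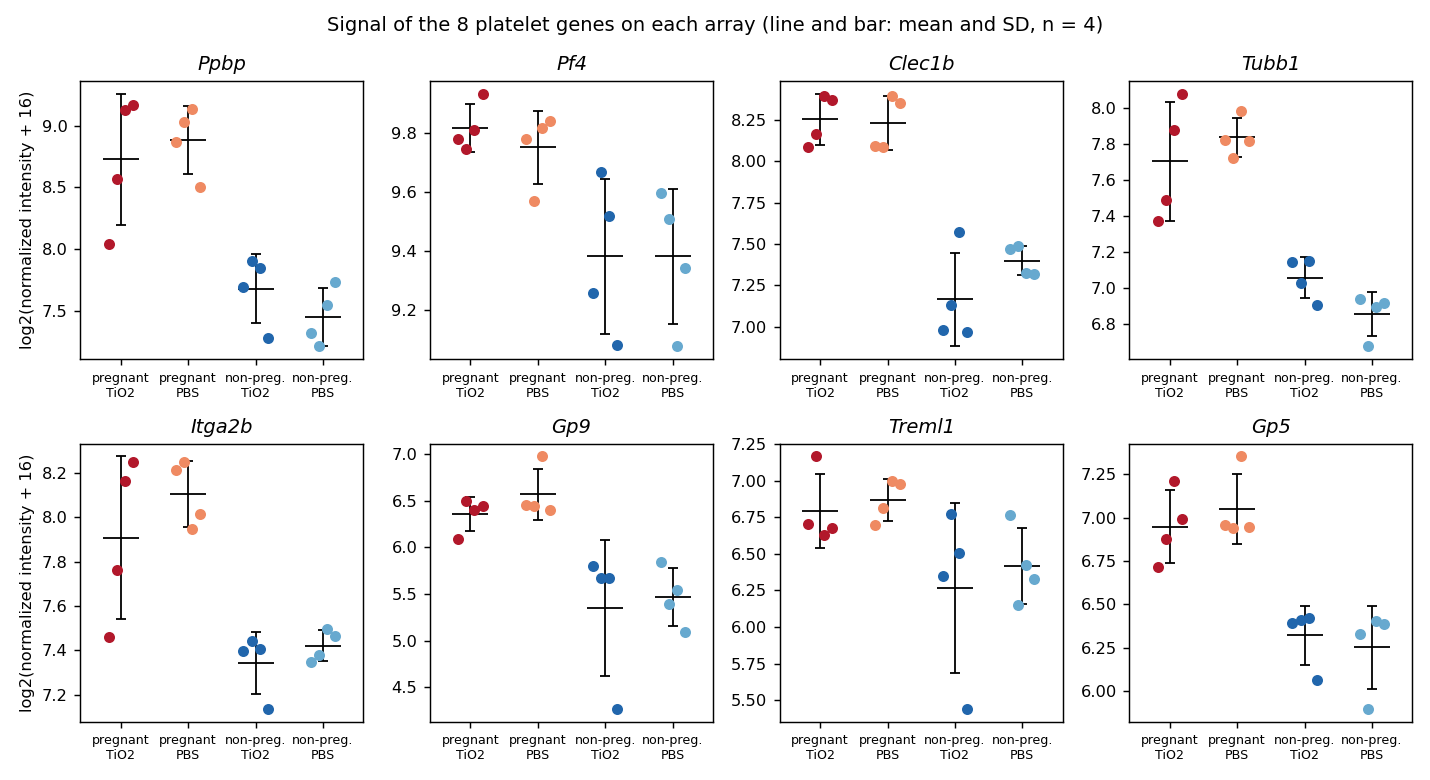
Each panel plots log2(normalized intensity + 16) of 1 gene on the 16 arrays (points) by group, with the group mean (line) and SD (bar), n = 4; panels have their own vertical ranges. The pregnant groups lie above the non-pregnant groups in every panel, with overlap for Pf4, Itga2b and Treml1.

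After PBS, the exposure in which the genes had been chosen, the pregnant minus non-pregnant difference was 1.43 ± 0.22 for Ppbp, 1.10 ± 0.27 for Gp9, 0.98 ± 0.13 for Tubb1, 0.83 ± 0.13 for Clec1b, 0.80 ± 0.14 for Gp5, 0.68 ± 0.14 for Itga2b, 0.45 ± 0.22 for Treml1 and 0.37 ± 0.13 for Pf4 (log2 ± SE of the fit, n = 4 against 4). The median over the 8 was 0.81, or 0.80 without Gp9, against 0.01 over all genes. In 5 of the 7 genes other than Gp9, all but Pf4 and Treml1, the pregnant PBS arrays did not overlap the non-pregnant PBS arrays, as in 3.46% of all genes. With that conflicting array moved to the pregnant PBS group the median was 0.61 and Ppbp stood at 1.02.

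After TiO2, on 8 other arrays, Ppbp, Clec1b, Tubb1 and Gp5 were called higher in pregnant than in non-pregnant lungs. Clec1b was 1.09 ± 0.13 higher (log2 ± SE, 2.13 times, limma's adjusted p = 0.00331), ranking 1 of all 12369 genes by p. Ppbp was 1.05 ± 0.22 higher (adjusted p = 0.0288 by limma), Tubb1 0.65 ± 0.13 higher (adjusted p = 0.0261 by limma) and Gp5 0.63 ± 0.14 higher (adjusted p = 0.0325 by limma). These 4 of 8 compare with 1.37% of all genes called higher in this comparison. Itga2b at 0.56 ± 0.14, Treml1 at 0.53 ± 0.22 and Pf4 at 0.44 ± 0.13 did not pass, with limma's adjusted p in that order of 0.0578, 0.199 and 0.0841. Gp9 did not pass either, at 1.00 ± 0.27 (adjusted p = 0.0685 by limma), and its difference depended on the pseudocount: it was 1.62 with a pseudocount of 1 and 0.52 with 64, where it passed (adjusted p = 0.0443). The median was 0.64 (0.63 without Gp9) against 0.03 over all genes, and 6 of the 7 genes other than Gp9, all but Treml1, had groups that did not overlap, as did 9.56% of all genes in that direction. The 2-sided exact permutation test of each of these 6 over 70 assignments gave p = 0.0286, the smallest that 4 against 4 can give. Groups of 4 that do not overlap always give that value, so it restates the lack of overlap and is no further evidence. For Treml1, whose groups overlapped, the same exact permutation test gave p = 0.114.

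The genes were proposed with results of these arrays known, so neither the count nor these p-values are independent support for the difference. The spread in the fit was shared with the PBS arrays; with the 8 TiO2 arrays alone, Clec1b (adjusted p = 0.0141) and Gp5 (0.0337) passed, while Ppbp (0.0532) and Tubb1 (0.0523) were just outside the threshold of 0.05, all by limma. Leaving out pregnant TiO2 replicate 3 or 4, or non-pregnant TiO2 replicate 1, 3 or 4, left 1 gene called, Clec1b. Over all genes these settings had 87, 52, 38, 44 and 84 called higher in that order, against 170 with all arrays. Without non-pregnant TiO2 replicate 2 there were 2 of the 8, Clec1b and, just under the threshold, Ppbp, beside 73 called higher of all genes. The count was 4 without each of the other 10 arrays in turn, beside 40 to 260 called higher of all genes. Clec1b passed under 29 of the 30 alternatives run, with limma's adjusted p between 0.000142 and 0.0478. The exception, chosen after seeing the data, left out the 3 arrays low in Glycam1 and with them 2 of the 4 non-pregnant TiO2 arrays: 0 of 8 genes passed, as 3 higher and 2 lower of all genes did, with Clec1b at 0.93 ± 0.15 (adjusted p = 0.0629 by limma), Ppbp at 0.91, Tubb1 at 0.69, Gp5 at 0.56 and Treml1 at 0.03, and a median of 0.60. On the values as deposited, without scaling between arrays, 1 gene passed, beside 14 higher and 7 lower of all genes. With the conflicting array moved to the pregnant PBS group 1 passed too, beside 73 higher and 31 lower of all genes. With arrays weighted by their quality in the fit 7 passed, beside 870 higher and 635 lower of all genes. Gp9, which passed the filter only through the pregnant groups, was among these 7.

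Sequences just before the transcription starts of the 4 genes called after TiO2 are shown as a description. Whether they bear on the pregnant minus non-pregnant difference was not tested. They are the last 200 bases before the start of each gene in RefSeq's annotation of build GRCm38.p6, written 5′ to 3′ on the gene's strand. Capitals mark words read by megakaryocyte transcription factors of 2 families: a GATA word has the letters AGATAA or otherwise the letters AGATAG, and likewise TGATAA or otherwise the letters TGATAG, and an ETS word has the letters AGGAAG or otherwise the letters CGGAAG, on either strand.
Clec1b, chr6:129397097-129397296, plus strand: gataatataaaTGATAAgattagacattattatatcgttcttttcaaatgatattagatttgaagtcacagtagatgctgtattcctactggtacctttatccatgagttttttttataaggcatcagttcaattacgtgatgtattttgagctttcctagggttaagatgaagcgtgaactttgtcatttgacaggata
Ppbp, chr5:90768318-90768517, plus strand: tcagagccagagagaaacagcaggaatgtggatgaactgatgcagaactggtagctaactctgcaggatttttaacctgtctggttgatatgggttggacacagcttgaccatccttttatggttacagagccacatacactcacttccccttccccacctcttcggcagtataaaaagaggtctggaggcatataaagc
Tubb1, chr2:174450395-174450594, plus strand: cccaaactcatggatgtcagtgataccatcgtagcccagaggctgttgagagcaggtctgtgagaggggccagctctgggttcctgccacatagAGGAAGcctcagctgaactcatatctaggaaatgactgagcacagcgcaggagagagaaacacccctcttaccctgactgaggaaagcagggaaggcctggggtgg
Gp5, chr16:30310782-30310981, minus strand: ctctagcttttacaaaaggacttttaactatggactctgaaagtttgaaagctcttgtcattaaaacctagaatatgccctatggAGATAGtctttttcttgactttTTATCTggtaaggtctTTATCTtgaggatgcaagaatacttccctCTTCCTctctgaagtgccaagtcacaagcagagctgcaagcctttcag
In the 250 bases before the start, a GATA word was found in 2 of the 8 genes, Clec1b with 1 and Gp5 with 3, against 26.5% of the 32851 windows of the same length in the table. An ETS word was found in 5 of 8 (Pf4, Tubb1, Itga2b, Gp9 and Gp5), against 39.2% of windows. The word TGAGTCA, the core bound by the megakaryocyte factor NF-E2, was in 0 of 8 against 4.5% of windows, and the RUNX word TGTGGT in 1 of 8, Gp9, against 14.0%. No marked words overlap each other in the 4 sequences. A match of letters is a description and not a binding site. Ppbp, the gene with the highest difference after PBS, had none of these words, and neither had Treml1.

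TiO2 itself left the 8 genes without a detectable difference in either kind of mouse. In pregnant lungs the TiO2 minus PBS difference ran from −0.21 (Gp9) to 0.07 (Pf4), with 2 genes above 0, 6 below 0 and a median of −0.12 (all genes 0.00). In non-pregnant lungs it ran from −0.24 (Clec1b) to 0.23 (Ppbp), with 4 above 0, 4 below 0 and a median of −0.04 (all genes −0.02). That median had no settled sign: it was 0.14 without non-pregnant TiO2 replicate 4 and 0.04 without non-pregnant PBS replicate 1. By limma 0 of 8 passed in either comparison, as did 0 of all 12369 genes (0%); at an unadjusted p under 0.05 there were 0 of the 8 in each, and 795 and 1223 of all genes in pregnant and in non-pregnant mice. The 95% intervals of Clec1b were −0.25 to 0.29 in pregnant and −0.51 to 0.04 in non-pregnant mice, and those of Ppbp −0.63 to 0.32 and −0.25 to 0.71. For Gp9, the least precise, they were −0.79 to 0.36 and −0.69 to 0.46, so differences of moderate size in either direction could not be seen with these arrays.

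The difference between the 2 TiO2 responses, pregnant minus non-pregnant, also had 0 of 8 genes past limma's threshold, with 0 of 12369 (0%) over all genes and 0 of 8 and 1352 at an unadjusted p under 0.05. Its values ran from −0.38 ± 0.32 for Ppbp and −0.33 ± 0.19 for Tubb1 to 0.26 ± 0.18 for Clec1b (log2 ± SE), with a median of −0.11. The intervals were wide, −1.06 to 0.29 for Ppbp and −0.73 to 0.06 for Tubb1. The TiO2 comparisons and both pregnancy comparisons use the same 16 arrays, so their values are not independent of each other. The median turned to 0.12, and that of TiO2 in pregnant mice to 0.11, when the conflicting array was moved to the pregnant PBS group.

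**Figure D2:**
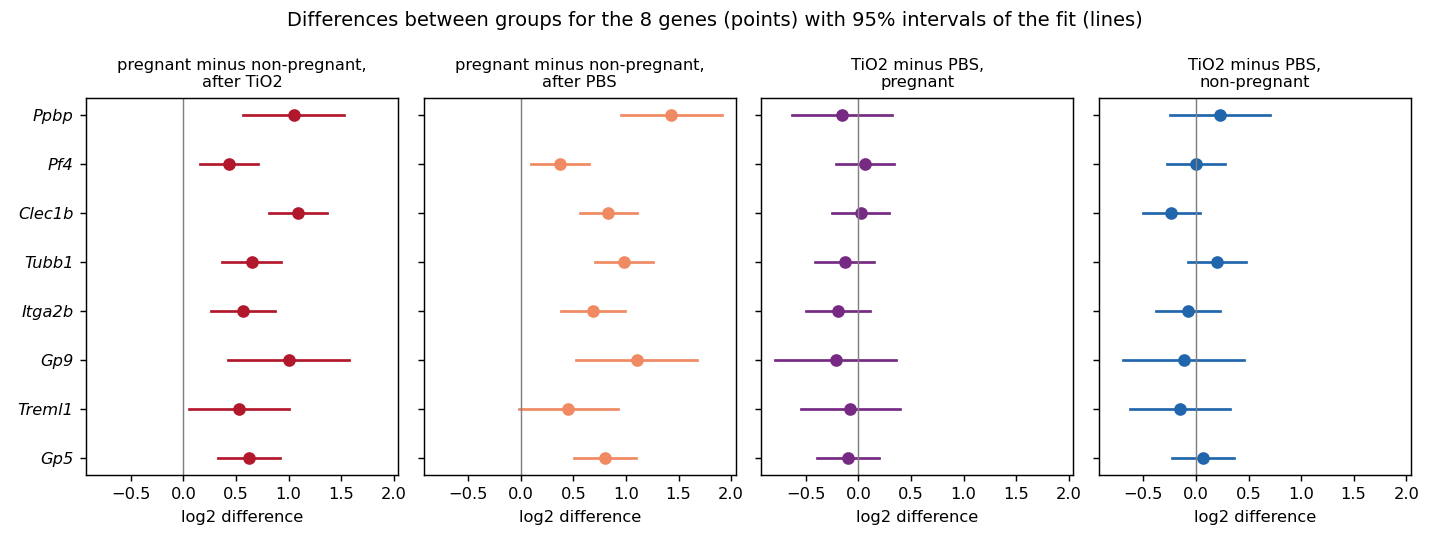
The 4 panels plot each gene's log2 difference (point) with its 95% interval from the fit (line): pregnant minus non-pregnant after TiO2 and after PBS, then TiO2 minus PBS in pregnant and in non-pregnant mice. After TiO2 all 8 pregnant minus non-pregnant intervals lie above 0 before any adjustment, those after PBS describe the contrast that chose the genes, and every interval of the TiO2 comparisons includes 0.

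Within groups, the 8 genes varied together from array to array. After each group's mean was removed, all 28 pairs of genes correlated positively over the 16 arrays, with a median r of 0.44 and a range of 0.08 to 0.84. The closest pairs were Ppbp with Itga2b (0.84), Gp9 with Treml1 (0.82) and Ppbp with Tubb1 (0.80), and the loosest was Itga2b with Treml1 (0.08). Gp9 and Treml1 both had their lowest value on non-pregnant TiO2 replicate 4 (4.27 and 5.44), and the weight of that array in their correlation was not tested. Gp9 had also passed the filter only through the pregnant groups. Genes measured on the same array share its RNA and its normalization, so these values describe the arrays and carry no p. Pairs of other genes were not examined, so the pattern is not shown to be particular to the 8.

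Some arrays were low or high in their group for most of the 8 genes. Non-pregnant TiO2 replicate 4 was the lowest of its group for all 8 genes, with a mean over the 8 of 6.64 against 7.13 to 7.26 in the other 3. Pregnant TiO2 replicate 1 was the lowest of its group for 6 genes, at a mean of 7.53 against 7.78 to 7.99. Pregnant PBS replicate 3 was the highest of its group for 6 genes, at a mean of 8.07 against 7.86 in each of the other 3. A choice made after seeing the data left out both of these low arrays. Clec1b, Ppbp and Tubb1 then passed after TiO2, at 1.08, 1.14 and 0.71 (adjusted p = 0.0144, 0.0293 and 0.0471 by limma). Gp5 did not, at 0.62 (adjusted p = 0.0959 by limma). Of all genes, 27 were called higher and 6 lower in that setting. The array mean of the 8 genes was 7.81 ± 0.21 in pregnant TiO2, 7.91 ± 0.11 in pregnant PBS, 7.07 ± 0.29 in non-pregnant TiO2 and 7.08 ± 0.10 in non-pregnant PBS lungs (SD, n = 4 each).

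**Figure D3:**
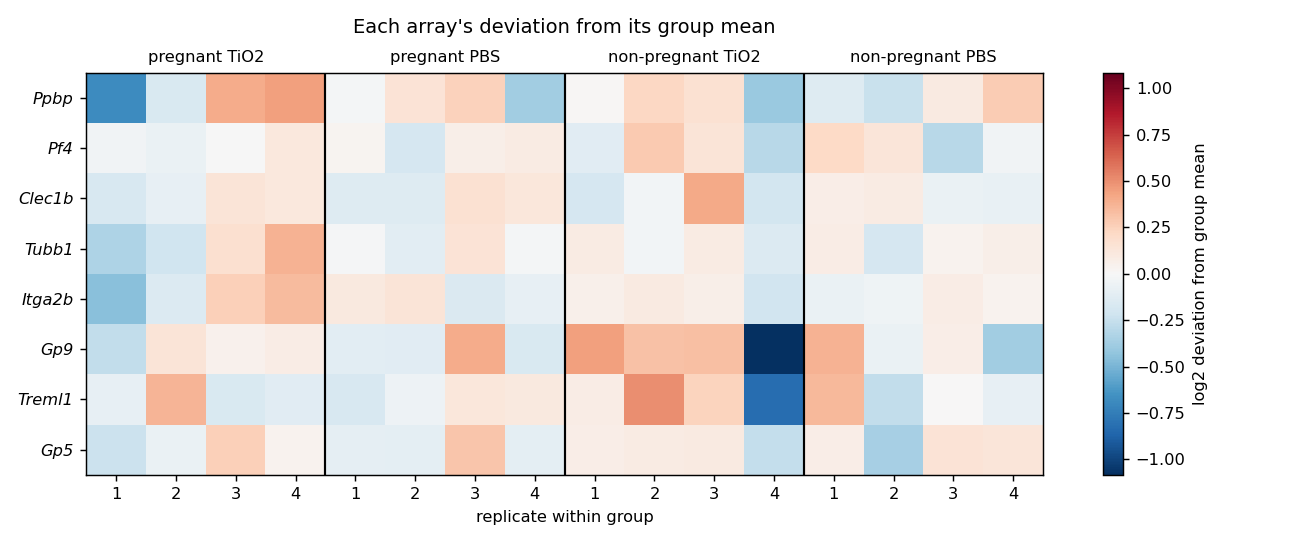
Rows are the 8 genes and columns the 16 arrays by group and replicate; colour gives the log2 deviation of an array from its group's mean. Non-pregnant TiO2 replicate 4 is below its group mean for all 8 genes.

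A minority of the wider platelet genes passed the test in the pregnancy comparisons. Lists by role held 74 other genes of platelets and megakaryocytes, of which 60 passed the filter; 8 have no probe set with a single symbol and are not analysed here, among them Gp1ba, Thpo and Ptgs1, and Gp6, Itga2, P2ry1, F2rl3, Cd226 and Gfi1b did not pass the filter. After TiO2, limma called 9 of the 60 higher and 1 lower in pregnant lungs (1.37% and 0.509% of all genes), with a median of 0.17. After PBS it called 6 higher and 1 lower (0.808% and 0.234% of all genes), with a median of 0.13. Between TiO2 and PBS, 0 of 60 were called in either kind of mouse, with medians of −0.05 in both. The lists too were drawn up with earlier results of these arrays known.

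The genes called higher after both exposures were F13a1, Itgb3, Plek, Fcer1g and Alox12. Itgb3, the integrin subunit that pairs with Itga2b, was at 6.74, 6.90, 7.03 and 6.53 in pregnant TiO2 lungs, against 5.92, 6.19, 6.44 and 6.13 in non-pregnant TiO2 lungs, a difference of 0.63 ± 0.15 (limma's adjusted p = 0.0446), and differed by 0.86 ± 0.15 after PBS (adjusted p = 0.00941). Alox12, the platelet lipoxygenase that oxidizes arachidonate, was at 7.05, 6.95, 7.40 and 7.40 in pregnant TiO2 lungs, against 6.42, 6.51, 6.69 and 6.04 in non-pregnant TiO2 lungs. Its difference was 0.79 ± 0.13 after TiO2 (adjusted p = 0.0096 by limma) and 0.73 ± 0.13 after PBS (adjusted p = 0.0105). Plek, a kinase substrate abundant in platelets and leukocytes, differed by 0.60 ± 0.12 and 0.81 ± 0.12 after TiO2 and PBS, and the clotting factor subunit F13a1, shared with macrophages, by 0.78 ± 0.15 and 0.77 ± 0.15 (log2 ± SE). Fcer1g, the signalling chain of the collagen receptor and of Fc receptors, differed by 0.58 ± 0.14 and 0.79 ± 0.14.

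By role, the adhesion list had 5 other genes kept, of which Itgb3 was called after each exposure, and Gp1bb, the partner of Gp9, was at 0.57 ± 0.17 after TiO2 and 0.63 ± 0.17 after PBS without passing (adjusted p = 0.0836 and 0.0989 by limma). Among 14 other granule genes 3 were called higher after TiO2 (F13a1, Tgfb1 and Clu) and 1 after PBS (F13a1). Of 15 signalling genes 3 were called higher after TiO2 (Fermt3, Plek and Fcer1g) and 2 after PBS (Plek and Fcer1g). Of 3 eicosanoid enzymes 2 were called higher after TiO2 (Alox12 and Pla2g4a) and 1 after PBS (Alox12). None of the 7 other cytoskeletal genes was called in either comparison, with list medians of 0.13 after each. Among 6 agonist receptors, Tbxa2r, the thromboxane receptor, was called lower after PBS (−0.60 ± 0.12, adjusted p = 0.0245 by limma) and stood at 0.22 ± 0.12 after TiO2 without passing. P2ry12, the adenosine diphosphate receptor, was at 0.28 ± 0.18 after TiO2 and 0.74 ± 0.18 after PBS (adjusted p = 0.383 and 0.0627 by limma). Its signal was weak on the non-pregnant PBS arrays, at 5.57 to 6.00. P2rx1, a cation channel opened by adenosine triphosphate, was at 0.07 ± 0.09 after TiO2 and 0.35 ± 0.09 after PBS and did not pass (adjusted p = 0.683 and 0.0817 by limma).

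Of the 11 megakaryocyte transcription factor and thrombopoietin-signalling genes kept, Nfe2, a factor required for platelet release, was called higher after PBS (1.17 ± 0.21, adjusted p = 0.00981 by limma) and was at 0.80 ± 0.21 after TiO2 (adjusted p = 0.063). Gata2, also expressed in endothelium, was called lower after TiO2 (−0.53 ± 0.12, adjusted p = 0.0314 by limma) and was at −0.09 ± 0.12 after PBS. Gata1, the defining megakaryocyte and erythroid factor, did not pass, at 0.20 ± 0.17 after TiO2 and 0.38 ± 0.17 after PBS (adjusted p = 0.527 and 0.394 by limma). The signal of Gata1 was weak, with group means between 5.56 and 6.06. Gp9, at up to 5.84 in non-pregnant PBS lungs, was below the array medians there. Vwf and Selp, which platelets share with endothelium, did not pass either: Vwf was at −0.15 ± 0.08 after TiO2 and 0.09 ± 0.08 after PBS, and Selp at 0.37 ± 0.11 and 0.12 ± 0.11. The median of this transcription factor list was 0.06 after TiO2 and −0.04 after PBS. The count of 9 higher calls after TiO2 rested on few arrays: it was 1 without pregnant TiO2 replicate 4 or non-pregnant TiO2 replicate 1 or 3, 2 without pregnant TiO2 replicate 1 or 3 or non-pregnant TiO2 replicate 4, and 4 without non-pregnant TiO2 replicate 2. It was 0 without the 3 arrays low in Glycam1. Over all arrays left out in turn it ran from 1 to 11, and the count after PBS from 5 to 8. Higher calls over all genes ran from 38 to 260 after TiO2 and from 56 to 169 after PBS in the same settings.

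**Figure D4:**
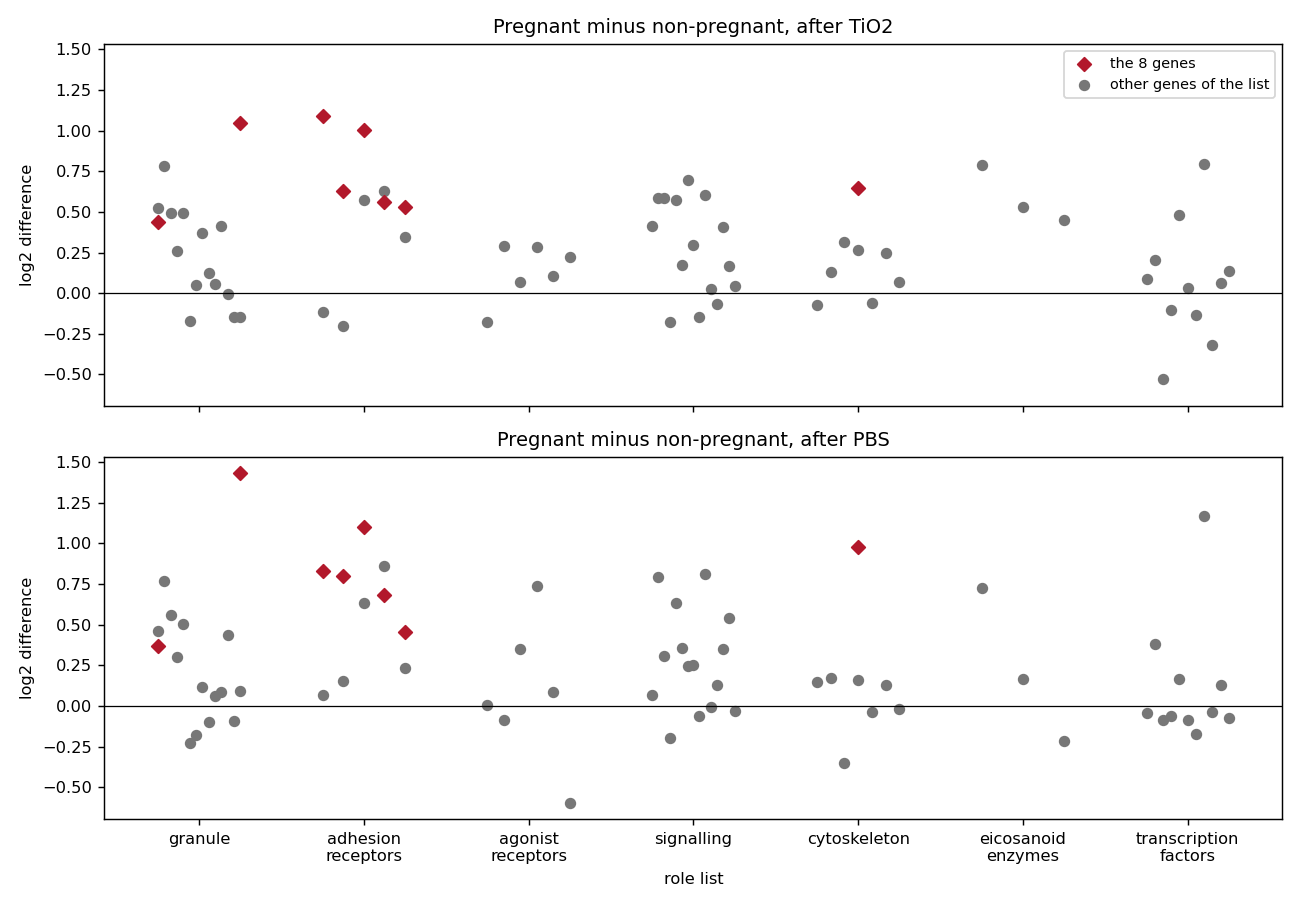
Each point is 1 gene's pregnant minus non-pregnant log2 difference, after TiO2 (upper panel) and after PBS (lower panel), by role list; diamonds are the 8 genes and circles the other genes of the lists, and Gp1bb stands in 2 lists. The 8 genes lie above 0 in both panels. The other genes of the cytoskeletal and transcription factor lists lie on both sides of 0, with Nfe2 the highest transcription factor in both panels.

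The genes whose values followed the mean of the 8 most closely over the 16 arrays were Alox12 (Pearson's r = 0.95), Fxyd5 (0.92), Nr4a1 (0.92), Plek (0.90), Ccl9 (0.90) and Fpr2 (0.90), among which Alox12 and Plek are platelet list genes. Nr4a1, an immediate-early nuclear receptor, was at 9.32, 9.04, 10.04 and 9.77 in pregnant TiO2 lungs, against 8.27, 8.23, 8.35 and 8.27 in non-pregnant TiO2 lungs. With each group's mean removed, the closest were Sec23a (0.87), Nf1 (0.82), Foxm1 (0.81), Tbck (0.80), Mical2 (0.80) and Alox12 (0.80); Alox12 alone was in both sets, and the other 5 did not pass in the pregnancy comparison after TiO2. These are descriptions over 16 arrays chosen as the highest of 12369 genes.

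Markers of other blood and lung cells differed between pregnant and non-pregnant lungs to unequal degrees. Of 14 neutrophil genes kept out of 19, limma called 3 higher after TiO2 and 8 after PBS in pregnant lungs, with medians of 0.42 and 0.75; the level of the list, summed over its genes and divided by their number on each array, was 7.48 to 7.93 in pregnant TiO2, 8.09 to 8.57 in pregnant PBS, 7.20 to 7.43 in non-pregnant TiO2 and 7.33 to 7.57 in non-pregnant PBS lungs. The granule genes Elane and Mpo of neutrophil precursors were below the filter. In pregnant mice the neutrophil median was −0.59 for TiO2 minus PBS, where that of the 8 platelet genes was −0.12. Of 12 macrophage genes, 4 were called higher after TiO2 (Marco, C1qa, C1qb and C1qc) and 2 after PBS (Chil3 and Cd68), with array means of 8.62 to 8.79, 8.65 to 8.78, 8.26 to 8.31 and 8.27 to 8.51 in the same order of groups. Their part in the platelet gene result was not tested.

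The erythroid list kept 3 of 19 genes, with 0 called after either exposure and medians of 0.49 after TiO2 and 0.28 after PBS; Klf1, Hemgn and the single-symbol alpha globin probe sets were below the filter. Its array means were 9.09 to 9.35 in pregnant TiO2, 8.74 to 9.49 in pregnant PBS, 8.52 to 9.00 in non-pregnant TiO2 and 8.33 to 8.79 in non-pregnant PBS lungs, and its part in the result was not tested. The list of lymph node venule and fat genes (Glycam1, Adipoq, Fabp4 and Cidec kept) had 0 of 4 called after either exposure, with medians of 1.46 after TiO2 and 0.24 after PBS, and −1.65 for TiO2 minus PBS in non-pregnant mice. Its array means were 7.61 to 10.95 in pregnant TiO2, 9.58 to 11.01 in pregnant PBS, 7.21 to 9.91 in non-pregnant TiO2 and 9.77 to 10.93 in non-pregnant PBS lungs. The array lowest in it, non-pregnant TiO2 replicate 4, was also the array lowest in its group for all 8 platelet genes, and over the 16 arrays its deviations correlated at 0.29 with those of the mean of the 8. None of the 10 endothelial and 7 lung epithelial genes was called in either comparison, with medians between 0.01 and 0.04. After removal of group means, the mean of the 8 genes correlated over the 16 arrays at 0.40 with the macrophage list, 0.35 with the neutrophil list, 0.00 with the endothelial list and −0.39 with the erythroid list. Pdpn, the podoplanin that Clec1b's product binds, was at 0.14 ± 0.16 after TiO2 and −0.16 ± 0.16 after PBS (log2 ± SE) and did not pass. With the 3 arrays singled out by Prss16 and Krt13 left out, 4 of the 8 genes were called after TiO2. Of all genes, 289 were called higher and 139 lower in that setting. The median differences of the 8 were then 0.69 after TiO2 and 0.85 after PBS.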

How the data were processed

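Whole-lung RNA of 16 samples was measured on single-colour arrays of 45101 probe sets. The deposited values are linear intensities, 1 per probe set and array. The submitters' processing notes name GCOS, MAS5 and RMA without saying which made them, and no scanner files were used here. The deposited intensities were not on a common level: array medians ran from 32.0 to 56.5.

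From these, 64 control probe sets were removed, arrays were quantile-normalized, and log2(intensity + 16) was taken. Probe sets above the array median on at least 4 arrays were kept, 23995 in all. Names came from the platform annotation, which gave 34945 probe sets 1 symbol, 932 several and 9160 none; 34741 symbols were matched to RefSeq by gene identifier. The probe set with the highest mean stood for each of 12369 genes. One limma fit (version 3.58.1, R 4.3.3) of 4 group means over all 16 arrays, with 12 residual degrees of freedom before moderation, gave each difference, with Benjamini-Hochberg adjustment over all genes and a threshold of 0.05. The procedure was tested on simulated data.

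The genes and lists were chosen with earlier results of these data known. Named were the 8 genes, up to 3 others per platelet role list with the largest differences, the 6 genes most like the mean of the 8 by each of 2 correlations, and a fixed set of check genes; other list genes are named where they passed the test. Promoter letters came from RefSeq's GRCm38.p6 table. Alternatives covered normalization, pseudocount, filter, probe set, spread estimate, array weights, arrays in the fit, the conflicting label and each array left out.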

Additional observations from a re-analysis of the deposited data

Results flagged for a closer look

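The 8 genes in 4 groups gave 32 sets of 4 arrays, on the log2(intensity + 16) scale. In 8 sets, an array's distance to its nearest neighbour exceeded Dixon's 95% critical share of the range of its group. Chance flags about 1 such set in 20. The genes share the same 16 arrays, so the sets are not independent and the number of flags is not a test. Non-pregnant TiO2 replicate 4 stood low for Itga2b (7.14), Gp9 (4.27) and Gp5 (6.07). Pregnant PBS replicate 3 stood high for Gp9 (6.97) and Gp5 (7.35). Non-pregnant PBS replicate 2, the array with conflicting labels, stood low for Tubb1 (6.67) and Gp5 (5.90), the side away from the pregnant arrays. Pregnant TiO2 replicate 2 stood high for Treml1 (7.16).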

How the results depend on the processing

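All 8 genes kept a difference above 0 in both pregnancy comparisons under the 30 alternatives run, and for TiO2 minus PBS and the interaction 0 of 8 were called under each. No paired analysis was possible because replicate numbers only follow the order of the samples. Few arrays, weak signals (Gp9 above all) and a fit-wide threshold limit the counts. The count of 4 genes called after TiO2 was 1 on values as deposited, 2 with only the groups compared, 7 with array weights, 1 with the conflicting array as pregnant PBS, 0 without the 3 arrays low in Glycam1, and 1 to 4 with 1 array left out. With a pseudocount of 64, Itga2b passed as well (limma's adjusted p = 0.0488), as did Gp9 (0.0443). Itga2b also passed with a trended and robust spread (limma's adjusted p = 0.0422). Without the filter Gp5 did not pass (limma's adjusted p = 0.0536). The count of other platelet genes called higher after TiO2 (9) was 0 as deposited, 5 with scaling to a trimmed mean, 4 with no filter, 19 with array weights, 1 with the conflicting array as pregnant PBS, 1 without both low TiO2 arrays, 0 without the 3 arrays low in Glycam1, and 1 to 11 with 1 array left out. After PBS that count (6) was 2 as deposited, 3 with only the groups compared, 10 without the 3 arrays singled out by Prss16 and Krt13, 0 with the conflicting array as pregnant PBS, and 5 to 8 with 1 array left out. Over all genes, the 100 higher calls after PBS became 38 as deposited and 45 with only the groups compared. They became 227 without the 3 arrays singled out by Prss16 and Krt13, and 1 with the conflicting array as pregnant PBS. Over all genes, the 170 higher and 63 lower calls after TiO2 became 14 and 7 as deposited, 335 and 148 with only the groups compared, 870 and 635 with array weights, 73 and 31 with the conflicting array as pregnant PBS, 27 and 6 without both low TiO2 arrays, and 3 and 2 without the 3 arrays low in Glycam1. The median of the 8 after PBS (0.81) was 0.60 with a pseudocount of 64 and 0.61 with the conflicting array as pregnant PBS, which turned the medians of TiO2 in pregnant mice to 0.11 and of the interaction to 0.12. As deposited, the interaction median of the 8 was −0.32, where that of all genes was −0.25. The median of TiO2 in non-pregnant mice (−0.04) was 0.14 as deposited, where that of all genes was 0.17, 0.064 with array weights, 0.14 without both low TiO2 arrays, 0.21 without the 3 arrays low in Glycam1, and −0.10 to 0.14 with 1 array left out.

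Single differences that were not called turned sign as follows, and the cause was not tested. On values as deposited, TiO2 minus PBS was −0.0030 for Pf4 and −0.060 for Clec1b in pregnant mice and 0.10 for Itga2b in non-pregnant mice, the interaction was −0.22 for Pf4, −0.020 for Clec1b and −0.14 for Treml1, and P2rx1 was at −0.060 for pregnancy after TiO2. With a pseudocount of 1, Pf4 was at −8.63e-05 for TiO2 in non-pregnant mice and Gp9 at 0.15 for the interaction. With array weights, Ppbp was at 0.079 for TiO2 in pregnant mice, Gp9 at 0.14 in non-pregnant mice, and the interaction was −0.0084 for Pf4, 0.043 for Itga2b and −0.16 for Treml1. Without the 3 arrays singled out by Prss16 and Krt13, Pf4 was at −0.17 for TiO2 in non-pregnant mice, and the interaction was 0.0039 for Gp9 and −0.0091 for Treml1. With the conflicting array as pregnant PBS, TiO2 minus PBS in pregnant mice was 0.18 for Ppbp, 0.10 for Tubb1, 0.020 for Gp9, 0.068 for Treml1 and 0.13 for Gp5, Gp5 was at −0.050 in non-pregnant mice, and the interaction was 0.031 for Ppbp, 0.039 for Itga2b, 0.16 for Gp9 and 0.18 for Gp5. Without both low TiO2 arrays, Ppbp was at 0.072 for TiO2 in pregnant mice, Gp9 at 0.25 and Treml1 at 0.12 in non-pregnant mice, and the interaction was −0.022 for Pf4 and −0.17 for Treml1. Without the 3 arrays low in Glycam1, TiO2 minus PBS in non-pregnant mice was 0.0012 for Itga2b, 0.21 for Gp9 and 0.22 for Treml1, and the interaction was −0.12 for Pf4 and −0.42 for Treml1. With 1 array left out, TiO2 minus PBS in pregnant mice ran from −0.30 to 0.072 for Ppbp, −0.025 to 0.080 for Clec1b and −0.19 to 0.00095 for Gp5. In non-pregnant mice it ran from −0.10 to 0.10 for Pf4, −0.26 to 0.25 for Gp9, −0.32 to 0.12 for Treml1 and −0.050 to 0.15 for Gp5. The interaction ran from −0.034 to 0.17 for Pf4, −0.23 to 0.029 for Itga2b, −0.46 to 0.048 for Gp9 and −0.20 to 0.24 for Treml1.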
